A study of Mus musculus with 6 samples.

Results

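Fatty acid synthesis and desaturation were followed through 10 genes, taken as the rows of the deposited count table whose symbol equals a member of a fixed list: Acly, Acaca, Fasn, Elovl1, Elovl6, Scd1, Scd2, Fads1, Fads2 and Srebf1. All 10 were found among the 45808 rows of the table, and all 10 passed the filter on low counts. The libraries come from T cells purified from mouse spleen (C57BL/6 background, age 2 months), stimulated in culture with antibodies to CD3 and CD28 plus IL-2, a T cell growth factor. There were 3 libraries of wild-type cells and 3 of Drp1-/- cells, called Drp1 KO here. Drp1, the product of Dnm1l, is a GTPase that pinches mitochondria apart. The labels read here name no Cre driver. Nor do they tie replicates to different mice or dishes, and the spread behind each p-value may therefore be technical.

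Cells make fatty acids in the cytosol from citrate exported by mitochondria. Acly cleaves the citrate to acetyl-CoA, Acaca carboxylates that to malonyl-CoA, and Fasn builds palmitate from the pair. Elovl enzymes then lengthen the chain, Scd enzymes put the first double bond into saturated chains, and Fads enzymes add further double bonds to polyunsaturated ones. Srebf1 encodes SREBP transcription factors that switch on these enzymes, and liver X receptors (LXR) in turn raise Srebf1 transcription. T cells that leave quiescence and divide need this pathway to build membranes.

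Promoter windows, from 250 bases before to 50 after a RefSeq start site (GRCm38.p6), were found for 7 of the 10 genes: Acly, Acaca, Fasn, Elovl1, Elovl6, Fads2 and Srebf1. Those of Acly and Fasn, which rose in KO, and that of the start site of Srebf1 furthest into the gene, which fell as a whole, are shown because the genes moved in opposite directions. All 3 read 5′ to 3′ on the gene's own minus strand. Capitals mark each match to CCAAT, the box bound by NF-Y, and to TCACCC, the first bases of the sterol element bound by SREBP, on either strand.
Acly, chr11:100527951-100528250: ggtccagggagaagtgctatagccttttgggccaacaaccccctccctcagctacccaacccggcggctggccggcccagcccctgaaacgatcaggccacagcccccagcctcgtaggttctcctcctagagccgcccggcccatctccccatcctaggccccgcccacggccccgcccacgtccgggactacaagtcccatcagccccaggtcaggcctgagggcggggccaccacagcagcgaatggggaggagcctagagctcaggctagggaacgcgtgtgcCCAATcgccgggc
Fasn, chr11:120824498-120824797: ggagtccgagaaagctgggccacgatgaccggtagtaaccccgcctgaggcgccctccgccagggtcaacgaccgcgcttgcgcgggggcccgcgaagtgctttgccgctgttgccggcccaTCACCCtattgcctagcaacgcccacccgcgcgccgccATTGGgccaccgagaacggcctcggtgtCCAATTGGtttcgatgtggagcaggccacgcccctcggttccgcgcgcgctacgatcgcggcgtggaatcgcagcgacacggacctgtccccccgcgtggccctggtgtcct
Srebf1, chr11:60210422-60210721: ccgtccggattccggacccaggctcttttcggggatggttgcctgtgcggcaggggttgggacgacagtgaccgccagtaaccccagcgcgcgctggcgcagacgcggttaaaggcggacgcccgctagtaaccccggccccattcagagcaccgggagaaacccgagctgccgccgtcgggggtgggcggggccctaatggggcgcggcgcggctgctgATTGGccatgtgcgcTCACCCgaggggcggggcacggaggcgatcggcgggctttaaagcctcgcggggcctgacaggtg

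The windows of Fasn and Srebf1 each held a TCACCC, with its first base at position -128 in Fasn and -15 in Srebf1 relative to the start site at position 0. Those were the only matches, in 2 of the 10 windows of the 7 genes, against 16.2% of all 32851 windows; this short motif was chosen after the sequences had been seen. Fasn had 3 CCAAT boxes, at -90, -62 and -59, the last pair overlapping, and the other matches in the 3 printed windows were at 37 in Acly and -30 in Srebf1. CCAAT occurred in 5 of the 10 windows (of Acly, Fasn, Elovl1 and Srebf1) and in 37.4% of all windows, and the GC box GGGCGG in 6 of the 10 (of Acly, Elovl1, Fads2 and Srebf1) and in 35.7%. The longer sterol element TCACNCCAC, the LXR element (a direct repeat of AGGTCA with 4 bases between) and the E-box CACGTG had 0 matches in the 10 windows, against 1.24%, 0.0152% and 7.15% of all windows. A match describes letters only, and binding was not measured.

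Total counts ran from 24738017 to 34730475 per library, and the 10 genes had between 933 and 80948 counts each in any library. Dnm1l, the targeted gene, fell from 119 ± 3.76 to 95.3 ± 4.56 CPM (mean ± SD, n = 3 here and below). CPM are counts per 1e6 counts of a library, after a TMM correction of its total. A count per gene does not separate deleted exons from those a deletion leaves in place. Xist, the RNA of the inactive X chromosome, had at most 3 counts in any wild-type library and 12950 to 16862 counts in the KO ones, while the Y-linked Ddx3y went from 122 ± 27.2 to 74.0 ± 3.86 CPM. Every KO library thus held RNA of both Xist and Ddx3y (2163 to 2679 counts). The labels give no sex, so the sex of the animals, or its mix within a library, and the genotype cannot be told apart in any result below. Wild-type replicate 1 stood apart from the others of its group, with a chi-square per gene of 11.2 and 12.5 against replicates 2 and 3, which differed from each other by 2.43. The defining T cell genes (8 of 8 tested) summed to between 2750 and 2810.4 CPM per wild-type library and between 2363 and 2437 per KO library, with 6 called lower. By the calls defined below, 26.7% of all tested genes were higher and 26.1% lower in KO, the shares to set beside each count here. Markers of B cells (7 genes, none at 0) summed to 138 to 164 and 157 to 171 CPM, with 2 called higher and 1 lower. Monocyte and macrophage markers (10 genes, with C1qa, C1qb and Marco at 0 throughout) summed to 31.7 to 36.1 and 27.6 to 30.3 CPM. Most of it was Cd68 (26.2 ± 1.56 and 19.9 ± 1.17 CPM). Of 4 tested, 2 were called lower (Cd68 and Itgam) and 2 higher (Mpeg1 and Lyz2). Lyz2 had only 4, 5 and 7 counts in the wild-type libraries. NK cell markers (6 genes, none at 0) summed to 17.2 to 23.6 and 34.4 to 41.2 CPM, most of it Eomes (18.5 ± 3.08 and 32.8 ± 3.12 CPM). Of 4 tested, 3 were called higher in KO: Eomes, Klrb1c (1.20 ± 0.426 and 2.38 ± 0.543 CPM) and Ncr1. Ncr1 had only 2, 8 and 6 counts in the wild-type libraries, and Klra9 did not pass. Dendritic cell markers (7 genes; Xcr1, Siglech and Cd209a at 0) summed to 12.8 to 15.5 and 13.5 to 14.1 CPM. Megakaryocyte and platelet markers (7 genes, none at 0) summed to 125 to 135 and 133 to 136 CPM, most of it Itgb3 (120 ± 4.78 and 112 ± 1.26 CPM), which did not pass. The other 4 tested were called higher in KO: Pf4 (1.36 ± 0.0763 and 5.73 ± 1.33 CPM), Ppbp (0.428 ± 0.0838 and 2.06 ± 0.283 CPM), Itga2b (7.01 ± 0.996 and 13.2 ± 0.212 CPM) and Gp5 (0.111 ± 0.0744 and 0.677 ± 0.0501 CPM). Gp5 had only 1, 3 and 6 counts in the wild-type libraries, near the floor of 3 counts. Stromal and adipose markers (8 genes, with Col3a1, Plin1 and Lep at 0) summed to 28.2 to 32.4 and 27.9 to 30.03 CPM. Most of it was Pecam1 (28.4 ± 2.18 and 27.1 ± 0.917 CPM), and of 3 tested, 1 was called lower. Erythroid markers (8 genes, with Hba-a2 at 0) summed to 0.596 to 1.21 and 1.74 to 2.57 CPM, and both tested, Hbb-bt and Klf1, were called higher in KO. Klf1 passed only narrowly (edgeR adjusted p = 0.0486), with 4, 12 and 8 counts in the wild-type libraries and groups that overlapped. Neutrophil markers (7 genes; S100a8, S100a9 and Camp at 0) summed to 0.0426 to 0.349 and 0.149 to 0.336 CPM. Their part in the results was not tested, and in bulk RNA fewer cells of a type and less RNA per cell cannot be told apart.

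RNA of the genes that build palmitate (Acly, Acaca and Fasn) rose in KO, while that of the main desaturase gene Scd2 and the regulator Srebf1 fell. The libraries measure RNA only, not enzymes or lipids. Of the 10 genes, 6 rose (Fasn, Acaca, Acly, Fads2, Elovl1 and Fads1), 2 fell (Scd2 and Srebf1) and 2 did not pass (Elovl6 and Scd1). A gene was called where its edgeR quasi-likelihood p, adjusted by Benjamini-Hochberg over the 14209 genes tested, was under 0.05. Of all tested genes, 52.9% were called, 26.7% higher and 26.1% lower in KO. The median log2 fold change of the 10 genes was 0.21, against 0.01 for all tested genes. The 10 genes were chosen with earlier results of these data known, so this contrast only describes them. The same 8 genes had groups of libraries that did not overlap, which held for 63.3% of all tested genes. In 6 the KO libraries lay above (32.5% of all tested genes) and in 2 below (30.8%). The changes were moderate: the middle 80% of all tested genes lay between -0.53 and 0.57, and Fasn alone of the 10, at 0.60, lay outside it.

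**Figure D1:**
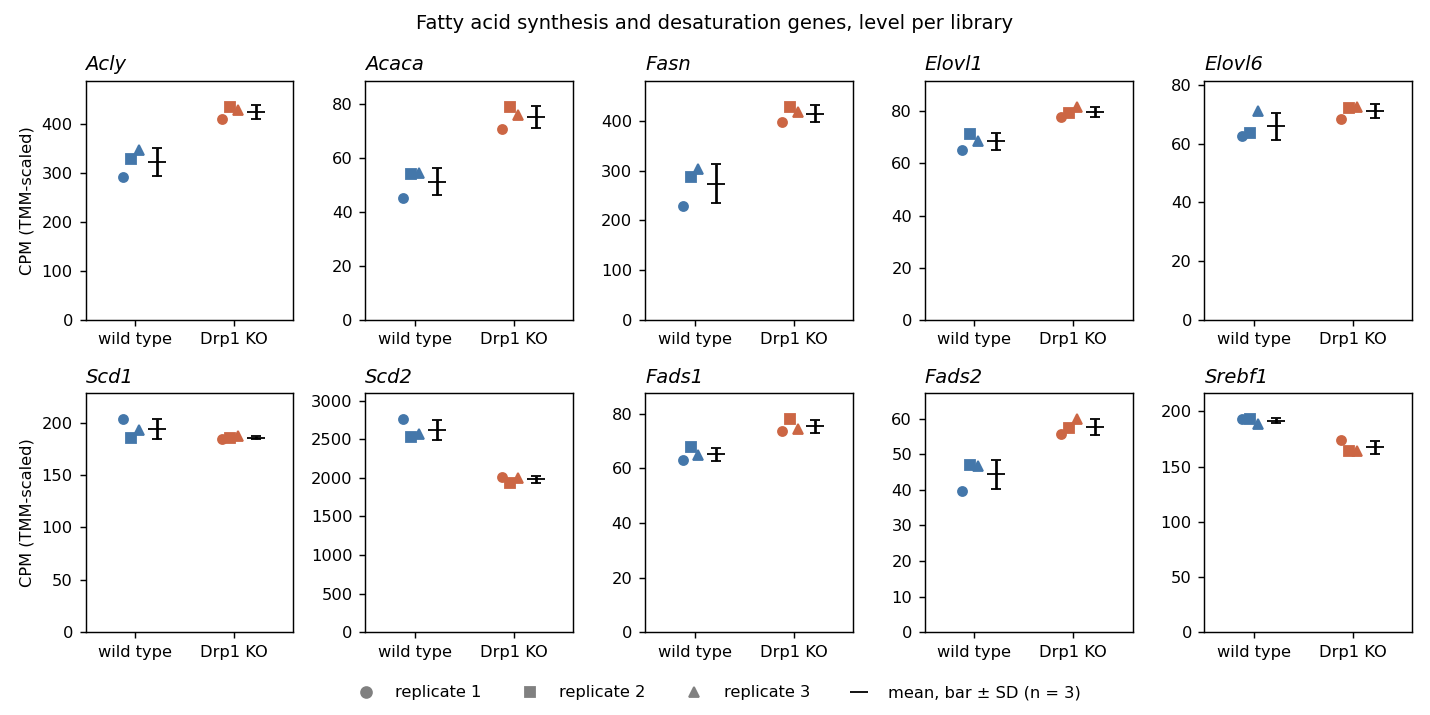
CPM (y axis, from 0) of each of the 10 genes in every library, by genotype (x axis); symbols mark replicates, and the black bar is the mean ± SD of 3 libraries. Fasn lies between 230.04 and 304 CPM in wild-type libraries and between 397 and 429 in KO libraries, Scd2 between 2529 and 2762 and between 1928 and 2009.8.

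Acly (chromosome 11, 100476353 to 100528000, mm10, minus strand), ATP citrate lyase, stood at 293, 329 and 348 CPM in wild-type replicates 1, 2 and 3 and at 410.4, 436 and 430.05 CPM in KO replicates 1, 2 and 3. All KO libraries were above all wild-type libraries, and wild-type replicate 1 was the lowest. Its log2 fold change was 0.40 ± 0.06 (SE), with an edgeR adjusted p of 0.000532.

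Acaca (chromosome 11, 84129672 to 84401651, plus strand), the carboxylase whose product malonyl-CoA commits carbon to fatty acids, stood at 45.4, 54.0 and 54.7 CPM in wild type and 70.9, 79.2 and 76.1 CPM in KO. The groups did not overlap, and the mean went from 51.4 ± 5.15 to 75.4 ± 4.18 CPM. This was a log2 fold change of 0.55 ± 0.08 (edgeR adjusted p = 0.000255), a level 46.5% higher. The antisense gene Gm11437 overlaps its span by 19126 bases but shares 0 exon bases with it and had 0 counts in every library.

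Fasn (chromosome 11, 120805846 to 120824547, minus strand), the synthase, rose furthest. It was read at 230.04, 287 and 304 CPM in wild type and at 397, 429 and 419 CPM in KO, so the lowest KO library was well above the highest wild-type library. The mean went from 274 ± 38.9 to 415 ± 16.3 CPM, 51.6% higher, with a log2 fold change of 0.60 ± 0.09 (edgeR adjusted p = 0.000356). Of all tested genes, 17.1% had a larger change in either direction. Within a library, Fasn also gained on Acly: the ratio of their counts was 0.786, 0.874 and 0.873 in wild type and 0.968, 0.984 and 0.975 in KO. The exact permutation p of that ratio was 0.1, 2-sided, the smallest that 3 against 3 libraries can give.

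The elongase genes moved less. Elovl1 (chromosome 4, 118428093 to 118432953), which lengthens very long saturated chains, stood at 65.1, 71.4 and 68.7 CPM in wild type and 77.9, 79.3 and 81.8 CPM in KO, a rise of 0.22 ± 0.05 on the log2 scale (edgeR adjusted p = 0.00588). Its last exon overlaps the antisense gene Cdc20, a mitotic regulator, by 53 bases, and Cdc20 rose by 0.36 ± 0.06; the strand setting of the counting is not given in the sources used here. Elovl6 (chromosome 3, 129532355 to 129638495), which takes palmitate to stearate, stood at 62.7, 63.7 and 71.3 CPM in wild type and 68.4, 72.3 and 72.7 CPM in KO. The groups overlapped, since wild-type replicate 3 was above KO replicate 1, and the difference of 0.11 ± 0.06 did not pass (edgeR adjusted p = 0.157).

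Scd2 was by far the most abundant of the 10 genes, and it fell. Scd2 (chromosome 19, 44293674 to 44306864, plus strand), a stearoyl-CoA desaturase, stood at 2762, 2529 and 2568 CPM in wild type and 2009.8, 1928 and 1999.7 CPM in KO. No KO library reached the lowest wild-type library, and wild-type replicate 1 was the highest. The mean fell by 24.4% from 2619.7 ± 125 to 1979 ± 44.6 CPM (log2 -0.40 ± 0.04, edgeR adjusted p = 9.43e-05). Scd1 (chromosome 19, 44394455 to 44407879, minus strand), its paralog, stood at 204, 185 and 193 CPM in wild type and 184, 186 and 187 CPM in KO. The groups overlapped and the difference of -0.06 ± 0.05 did not pass (edgeR adjusted p = 0.304). The other mouse paralogs were near the floor of 3 counts: Scd3 had 0 to 5 counts and Scd4 1 to 12 counts in any library. Reads that match several Scd paralogs make the split between them uncertain, since their handling is not given in the sources used here.

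Compared per length within each library, Scd1 gave 7.61%, 7.56% and 7.75% of the summed Scd1 and Scd2 signal in wild type and 9.29%, 9.70% and 9.48% in KO. The mean share went from 7.64 ± 0.0993% to 9.49 ± 0.207%, and the groups did not overlap. The exact permutation p was 0.1, 2-sided, the smallest this design allows. This share does not depend on how libraries are scaled. Scd2 was lower in every KO library and Scd1 changed little. The rise of the share therefore followed from those values and adds no separate evidence.

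The polyunsaturated desaturase genes rose. Fads2 (chromosome 19, 10062765 to 10101746), the desaturase of the first step on linoleic and linolenic acid, stood at 39.7, 46.9 and 46.7 CPM in wild type and 55.6, 57.3 and 59.9 CPM in KO (log2 0.37 ± 0.07, edgeR adjusted p = 0.00149). Fads1 (chromosome 19, 10182888 to 10196877), which acts later in the same route, stood at 63.0, 67.7 and 64.9 CPM in wild type and 73.6, 78.1 and 74.4 CPM in KO (log2 0.21 ± 0.05, edgeR adjusted p = 0.00674). The KO libraries lay above the wild-type libraries for both genes. The per-length share of Fads1 in the pair was 52.1%, 49.7% and 48.8% in wild type and 47.6%, 48.3% and 45.9% in KO, and the groups were separated by a narrow gap (exact permutation p = 0.1, 2-sided). Without wild-type replicate 1 the difference of shares went from -2.91 to -1.97 percentage points.

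Srebf1 (chromosome 11, 60199089 to 60222581, minus strand), the regulator, went the other way from 6 of the enzymes. It stood at 193, 193 and 189 CPM in wild type and 174, 164 and 164 CPM in KO, with no overlap between groups and little spread within them. The log2 fold change was -0.20 ± 0.05 (edgeR adjusted p = 0.00470), so the level fell by 12.7%. A count per gene adds up the transcripts of all start sites, so the SREBP isoforms that differ in their first exon are not separated, and 109 bases at its end overlap the antisense gene Rai1, which rose by 0.31 ± 0.09.

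**Figure D2:**
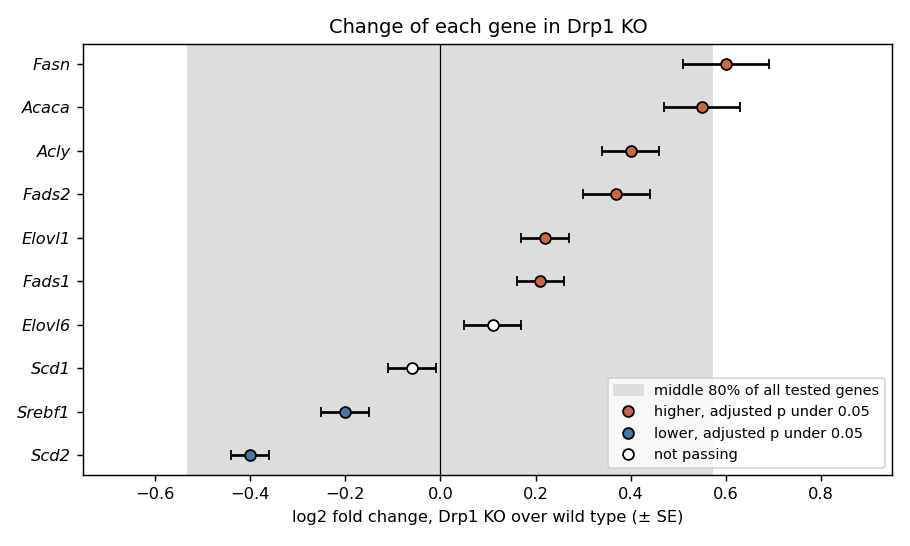
Log2 fold change of Drp1 KO over wild type with its SE (x axis) for each of the 10 genes (y axis, ordered by value); filled circles passed an edgeR adjusted p under 0.05, and the grey band holds the middle 80% of all tested genes. Values run from -0.40 for Scd2 to 0.60 for Fasn.

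The balance between the synthase and the desaturase differed between every KO and every wild-type library. Scd2 took 69.8%, 66.1% and 65.7% of the counts of the 10 genes in wild type and 57.1%, 54.9% and 56.1% in KO. The other 9 genes together rose from 1195, 1298 and 1341 CPM to 1512, 1581 and 1566 CPM. The 10 genes together held 0.376%, 0.377% and 0.386% of all counts in wild type and 0.362%, 0.360% and 0.366% in KO. There were 0.0833, 0.114 and 0.118 Fasn reads per Scd2 read in wild type and 0.198, 0.223 and 0.210 in KO, a difference of 1.01 on the log2 scale. Per Srebf1 read there were 1.19, 1.49 and 1.61 Fasn reads in wild type and 2.29, 2.61 and 2.56 in KO, a difference of 0.81. The wild-type and KO libraries did not overlap in any of the 3 ratios examined, each with an exact permutation p of 0.1 (adjusted p = 0.1). The ratios were chosen after the values were seen. Fasn was higher in every KO library, and Scd2 and Srebf1 were lower in every one. The separation of Fasn to Scd2 and of Fasn to Srebf1 therefore followed from those values and adds no separate evidence.

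**Figure D3:**
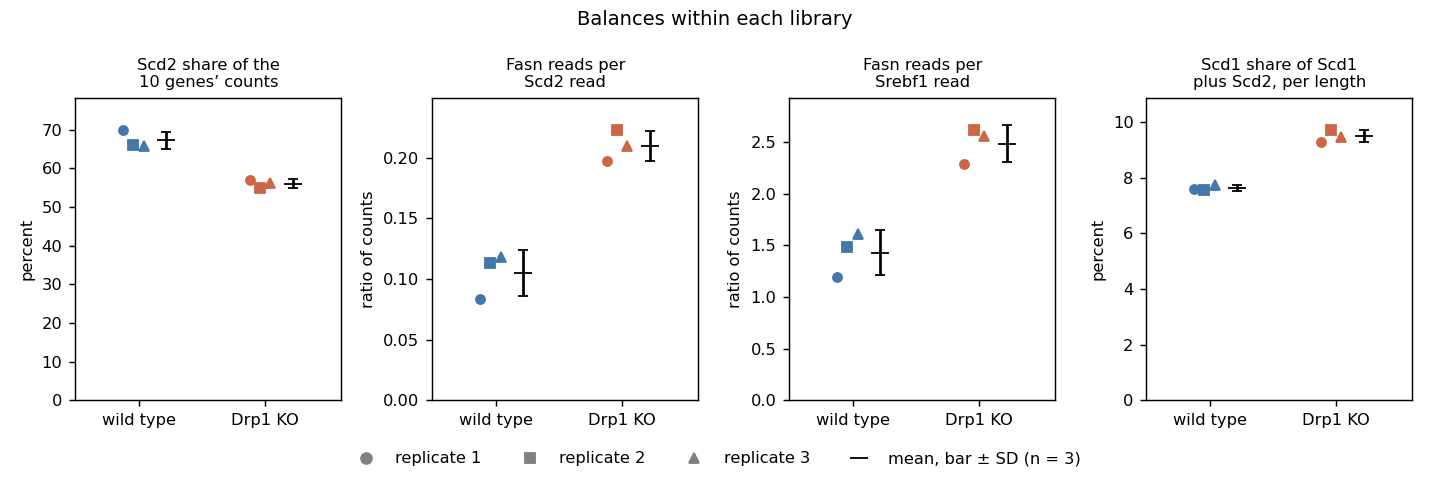
Scd2 share of the counts of the 10 genes (percent), Fasn reads per Scd2 read, Fasn reads per Srebf1 read, and Scd1 share of Scd1 plus Scd2 per length (percent), each from 0 on the y axis, by genotype (x axis); points are libraries, bars the mean ± SD of 3. In each panel the groups do not overlap, with Scd2 at 65.7% to 69.8% of counts in wild type and 54.9% to 57.1% in KO.

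Levels of different genes were compared as CPM per kb of exon, the union of all annotated exons of a gene. In wild type the order was Scd2 (479 ± 22.8 CPM per kb), Acly (61.3 ± 5.34), Scd1 (39.6 ± 1.89), Srebf1 (34.0 ± 0.421), Elovl1 (25.1 ± 1.16), Fasn (25.0 ± 3.55), Fads1 (13.5 ± 0.488), Fads2 (13.5 ± 1.24), Elovl6 (10.2 ± 0.725) and Acaca (3.01 ± 0.301). Neighbours in this order were separated in all 3 libraries except Elovl1 and Fasn, and Fads1 and Fads2, whose ranges overlapped. In KO Scd2 (362 ± 8.17 CPM per kb) and Acly (80.6 ± 2.57) kept their places, and Fasn came after Scd1 at 37.9 ± 1.49, overlapping Scd1 at 38.0 ± 0.328. Srebf1 at 29.7 ± 1.00 and Elovl1 at 29.2 ± 0.734 overlapped, Fads2 at 17.5 ± 0.666 stood above Fads1 at 15.7 ± 0.492, and Elovl6 at 11.1 ± 0.368 and Acaca at 4.42 ± 0.245 were last. With the length of the longest transcript in place of all exons, Acaca in wild type stood at 5.40 and Elovl1 at 37.8 CPM per kb, and Srebf1 (44.6) stood above Scd1 (40.1), the only change of places in wild type. In KO, the same change of length put Elovl1 (44.0) at place 3 and Scd1 (38.4) at place 6, and put Fads1 (21.8) above Fads2 (18.3).

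**Figure D4:**
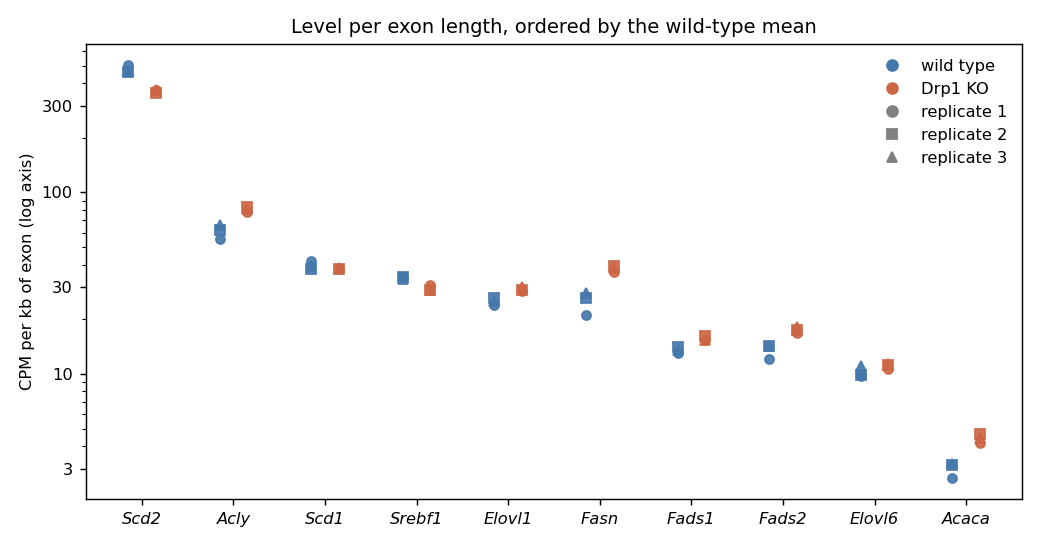
CPM per kb of exon (y axis, log scale) of the 10 genes (x axis, ordered by the wild-type mean) in each library; colour is genotype and symbol is replicate. Scd2 stands apart at 479 CPM per kb in wild type and 362 in KO, and Fasn moves from 25.0 to 37.9.

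Wild-type replicate 1 was the lowest wild-type library for 6 genes that rose (Acly, Acaca, Fasn, Elovl1, Fads1 and Fads2) and for Elovl6, and the highest for Scd1 and Scd2, so it lay on the side away from KO. Without it the counts of 6 higher and 2 lower stood. The log2 fold changes were then 0.49 for Fasn, 0.47 for Acaca, 0.33 for Acly, 0.30 for Fads2, 0.18 for Elovl1, 0.18 for Fads1, -0.37 for Scd2 and -0.19 for Srebf1. The Fasn to Scd2 ratio differed by 0.85 on the log2 scale without it.

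Genes with a pattern most like that of Fasn, the member with the largest change, were sought among 10167 other genes whose mean in the higher of the groups was at least 5 CPM. Likeness was the root mean square difference of log2 CPM, each gene centred on its mean over the 6 libraries. The closest were Adar, an RNA editing enzyme (0.0191), Slc39a6, a zinc transporter (0.0235), and Apobec1, a cytidine deaminase (0.0260). Acaca was the closest of the other 9 genes (0.0495, rank 60), and Scd2 the furthest (0.534, rank 8757). All 6 libraries enter the measure, so it mostly follows the difference between genotypes.

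The wider pathway was read from 9 lists with 112 genes, of which 103 were tested: 37 were higher in KO, 22 were lower and 44 passed in neither direction. These are 35.9% higher and 21.4% lower, 57.3% called, against 26.7%, 26.1% and 52.9% of all tested genes, the shares to set beside each count below. The lists, too, were chosen with earlier results of these data known. Carbon and cofactor supply had 9 tested genes, with 3 higher, 0 lower and 6 uncalled in KO. G6pdx, the entry enzyme of the pentose phosphate pathway that supplies NADPH, went from 51.9 ± 2.85 to 73.3 ± 2.81 CPM (log2 0.50 ± 0.06), and Mid1ip1, which activates acetyl-CoA carboxylase, from 44.6 ± 2.97 to 60.6 ± 1.62 CPM (log2 0.44 ± 0.06). Fatty acid synthesis inside mitochondria had 9 tested genes (median log2 fold change 0.47). In KO 7 were higher, 0 lower and 2 uncalled, the higher ones including Mecr, the reductase of the last step (log2 0.47 ± 0.06), and Lias, which makes lipoic acid (log2 0.34 ± 0.06). With DESeq2 5 of these 9 were higher, and 6 were higher without wild-type replicate 1, 2 or 3.

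Of 8 other elongation genes tested, 6 were uncalled, 1 was higher and 1 lower. Hsd17b12, a reductase of the elongation cycle, rose (log2 0.20 ± 0.05), and Elovl5, an elongase of polyunsaturated chains, fell from 198 ± 6.93 to 171 ± 5.65 CPM (log2 -0.22 ± 0.05). Other desaturases and electron donors had 7 tested genes, 4 of them uncalled, 3 higher and 0 lower, with Cyb5b, a cytochrome b5 (log2 0.45 ± 0.05), and Degs1, the dihydroceramide desaturase (log2 0.32 ± 0.07), as examples. Cyb5a, another cytochrome b5, went the other way, from 119 ± 1.71 to 109 ± 5.21 CPM. Its log2 fold change of -0.12 ± 0.05 did not pass (edgeR adjusted p = 0.0616).

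Among 15 tested genes that control SREBP and LXR, 6 fell and 3 rose, with 6 short of the threshold and a median log2 fold change of -0.09. Nr1h2, which encodes an LXR, went from 113 ± 5.92 to 81.2 ± 4.29 CPM (log2 -0.48 ± 0.06), and Insig2, which retains SREBP precursors in the endoplasmic reticulum, from 49.0 ± 4.97 to 34.2 ± 2.38 CPM (log2 -0.52 ± 0.08). Nr1h3, the other LXR gene, had 5 to 12 counts in any library and was not tested. LXR targets outside fatty acid synthesis had 6 tested genes, of which 3 were lower, 1 higher and 2 uncalled. Abcg1, a cholesterol exporter, went from 33.1 ± 4.88 to 18.3 ± 1.99 CPM (log2 -0.85 ± 0.11) and Smpdl3a, a phosphodiesterase, had a log2 fold change of -0.37 ± 0.07. The member that rose was Lpcat3, which puts polyunsaturated chains into phospholipids (log2 0.34 ± 0.07).

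Fatty acid uptake and activation had 11 tested genes, with 6 higher, 4 lower and 1 uncalled. Fabp5, a fatty acid carrier, went from 40.0 ± 2.25 to 64.9 ± 6.47 CPM (log2 0.70 ± 0.08), and Dbi, the acyl-CoA binding protein, from 51.3 ± 4.80 to 79.2 ± 4.07 CPM (log2 0.63 ± 0.07). Glycerolipid assembly had 15 tested genes, with 7 lower, 3 higher and 5 uncalled (median -0.11). The phosphatidate phosphatases Lpin1, from 144 ± 20.1 to 93.4 ± 7.39 CPM (log2 -0.63 ± 0.09), and Lpin2 (log2 -0.42 ± 0.07) fell. With the counts scaled by library totals alone, 4 of these 15 fell, and the same number fell without KO replicate 2 or without KO replicate 3. Sterol synthesis and uptake had 23 tested genes (median 0.12). Of these 12 were uncalled, 10 higher and 1 lower, with Fdps, farnesyl diphosphate synthase (log2 0.49 ± 0.07), and Hsd17b7, a sterol ketoreductase (log2 0.59 ± 0.10), rising and Stard4, a sterol carrier, falling (log2 -0.21 ± 0.05). The edgeR adjusted p-values of the called genes named in these lists ran from 9.23e-05 for Fabp5 to 0.00773 for Hsd17b12.

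**Figure D5:**
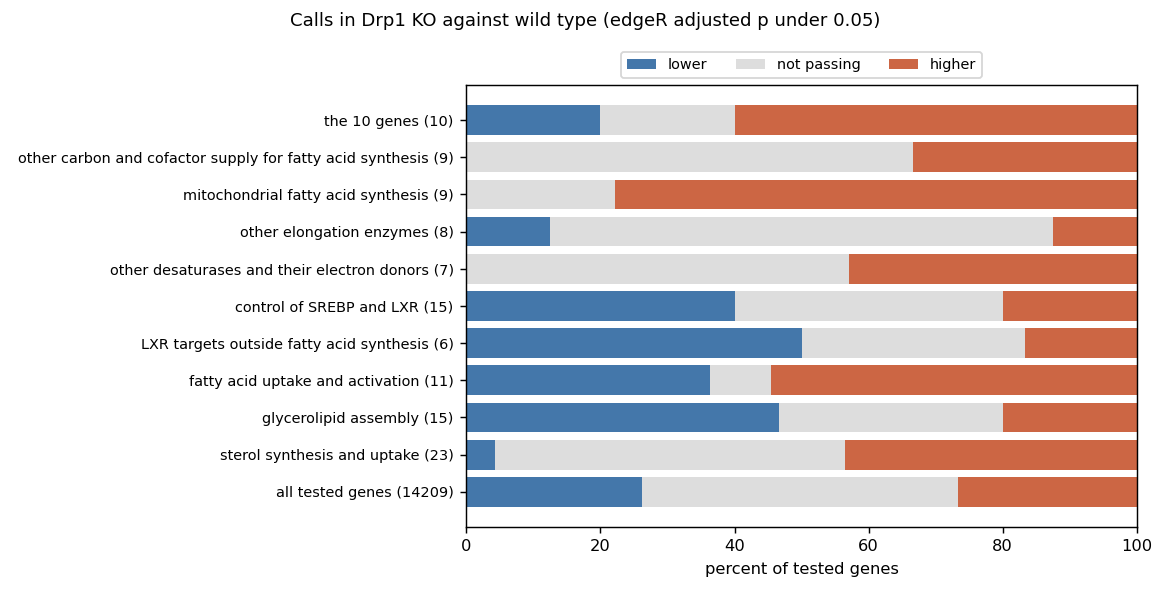
Percent of tested genes (x axis) that were lower, not passing or higher in KO at an edgeR adjusted p under 0.05, for the 10 genes, the 9 other lists and all tested genes (y axis, number tested in brackets). Of the 9 tested mitochondrial synthesis genes 7 are higher, and of the 15 glycerolipid genes 7 are lower.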

How the data were processed

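The values are raw counts by gene symbol as deposited, in 1 table that covers the 6 libraries, which were prepared with a stranded poly(A) mRNA kit per the labels' protocols. Per the submitters' processing notes the genome was mm10 and the tools included STAR 2.5.2 and HTSeq 0.6.1, beside FastQC, Cufflinks and DESeq2 1.12, with no roles stated. Not given in the sources used here are the strand setting, the annotation release and the handling of reads with several matches. In 27 rows (0.241% of counts) a spreadsheet had turned the symbol into a date; they stayed in library totals.

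The main test was edgeR 4.0.16 (R 4.3.3) with filterByExpr, TMM factors (0.949 to 1.03) and the quasi-likelihood F test, KO against wild type, 4 residual degrees of freedom. The filter kept 14209 genes with 99.9% of counts. The SE is the log2 fold change divided by the square root of F. Columns were matched to samples by their descriptions. Exon lengths and positions are from GENCODE M21 (mm10). Shares and ratios were tested by exact permutation over the 6 libraries. Alternatives were DESeq2 1.42.0, limma-voom (limma 3.58.1), other scalings and filters, a replicate block, and each library left out. The edgeR, limma-voom and DESeq2 fits were tested on simulated counts in which few genes changed. That check does not cover data in which many genes are called, as here.

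The members and lists were chosen with earlier results of these data known. All 10 members were named; in each other list the 2 called genes with the smallest adjusted p were named, plus a lone called gene against the list's direction. The 3 symbols Gpat3, Gpat4 and Hsd17b8 were matched through RefSeq synonyms. Dnm1l, Ddx3y, Xist, Cdc20, Rai1, Nr1h3, Scd3 and Scd4 were named as checks. Gm11437, Cyb5a and the cell type markers given by name were chosen after their values were seen. In the B cell list, 1 marker is not reported here and was left out of its sum.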

Additional observations from a re-analysis of the deposited data

How the results depend on the processing

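The counts of 6 higher and 2 lower among the 10 genes were unchanged in 12 of 14 alternatives; with library totals alone and without wild-type replicate 3, 7 were higher, as Elovl6 passed. Its log2 fold change was 0.18 with library totals alone (edgeR adjusted p = 0.0382) and 0.07 to 0.16 with a library left out (0.16, adjusted p = 0.0458, without wild-type replicate 3). Scd1 turned to 0.01 with library totals alone. That scaling moved the median of all genes from 0.01 to 0.08 and the share of calls that were higher from 50.6% to 62.0%, so directions are relative to the scaling. The 8 called genes kept direction and call in all 14: Fasn ranged from 0.49 to 0.68, Acaca 0.47 to 0.62, Acly 0.33 to 0.47, Fads2 0.30 to 0.45, Elovl1 0.18 to 0.29, Fads1 0.18 to 0.28, Scd2 -0.43 to -0.33 and Srebf1 -0.23 to -0.12. Srebf1 passed only narrowly with library totals alone (log2 -0.12, edgeR adjusted p = 0.0479).

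With the replicate number as a block, the counts were again 6 and 2, and 7900 of all genes were called against 7513. Deviations of same-numbered libraries from their group means correlated at 0.17, 0.13 and 0.01 over 14209 genes, and 2 of the 3 wild-type replicates (1 and 2, not 3) correlated best with the KO library of their own number. Not every pair was over 0.1 and the labels tie the numbers to nothing shared, so the numbers were not taken as pairs. Depth was not limiting for the 10 genes (at least 933 counts). The floor of 3 counts per library, 0.0864 to 0.121 CPM, limits what can be said of Scd3, Scd4 and Nr1h3. It also limits what can be said of the markers Gp5, Lyz2, Ncr1 and Klf1.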
